A study of Mus musculus with 24 samples.

Results

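The 37 genes described here are the nuclear genes named as subunits of respiratory complex I, taken from the count table as the protein-coding genes whose symbol is Nduf, then a, b, c, s or v, then a digit. The carrier protein Ndufab1 and the assembly factors (Ndufaf) are not among them. They are 37 of 55421 genes in the table and of 21976 protein-coding genes. RNA was counted in 24 libraries from small intestinal crypts of 8 mice, 1 library each of the stem, transit-amplifying (TA) and Paneth cell fractions of every mouse (sc, ta and pc in the titles). All 8 mice carried Lgr5-eGFP-CreERT2, a tamoxifen-dependent Cre made in Lgr5-positive stem cells, and all received 1 mg of tamoxifen on 3 consecutive days, with cells taken 4 days after induction. The 4 control mice were Setd1aFC/+; Lgr5-eGFP-CreERT2 (het: BN44, BO27, BO58 and BP03) and the 4 knockout mice were Setd1aFC/FC; Lgr5-eGFP-CreERT2 (hom: BN45, BO25, BO57 and BP04), so the controls also carried 1 conditional allele and the Cre. Fractions were sorted from live cells with antibodies to EpCAM, CD24 and CD45. The labels give no ages, and the share of cells of a fraction in which the allele was deleted was not measured.

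Complex I (NADH:ubiquinone oxidoreductase) is the entry point of the mitochondrial respiratory chain. It is L-shaped: a matrix arm takes electrons from NADH (N module) and passes them along iron-sulfur clusters to ubiquinone (Q module), and a membrane arm, with a proximal and a distal part, pumps protons. Its 7 mitochondrially encoded subunits all lie in the membrane arm, and the nuclear genes supply 7 conserved core subunits of the matrix arm (Ndufv1, Ndufv2 and Ndufs1 among them) and many accessory subunits that hold the complex together. In crypts, stem cells are known for high mitochondrial activity and Paneth cells for a more glycolytic metabolism. Ndufa4, despite its name, is counted today with complex IV, and Ndufa4l2 is its hypoxia-induced relative.

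The libraries held from 24.7 to 47.1 M counts each. Unless given per kb, levels are library-size normalised counts (CPM) scaled by TMM (a trimmed mean of ratios between libraries) over all 24 libraries. The stem and Paneth fractions held the markers of their names. The 10 crypt stem markers summed to between 27761 and 34501 CPM in het stem libraries and to between 5058 and 8711 in het TA libraries. The 9 Paneth markers summed to between 71408 and 487794 in het Paneth libraries and to between 489 and 2157 in het stem libraries. No list of TA markers was used. The 8 cycling markers did not set the TA fraction apart, with 1307 to 1653 CPM in het TA and 1402 to 1618 CPM in het stem libraries. Markers of other cells were present as well. The 7 goblet markers reached 15929 CPM in a het TA library, and the 10 enteroendocrine markers between 4270 and 7401 CPM in het Paneth libraries. Setd1a, the targeted gene, lay between 3.99 and 7.08 CPM in het and between 3.73 and 6.92 CPM in hom stem libraries. That count covers the whole gene, the labels do not say which part of it is deleted, and so it does not check them.

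RefSeq promoters of GRCm38.p6 (250 bases before to 50 after the start site) were at hand for 32 of the 37 members. Printed are those of 6 members that the comparisons turn on, 5′ to 3′ on the gene's strand, with matches to the motifs searched in capitals. Ndufv1 (chr19:4012706-4013005, minus strand) holds none of the motifs. Ndufb3 (chr1:58586147-58586446, plus strand) holds an NF-Y match, and Ndufa7 (chr17:33824322-33824621, plus strand) a YY1 and a TATA match. Ndufa1 (chrX:37191189-37191488, minus strand) holds a YY1 and an SP match. Ndufa5 (chr6:24527477-24527776, minus strand) holds a YY1 and an SP match, and Ndufs6 (chr13:73328433-73328732, minus strand) a YY1 and an NF-Y match.
Ndufv1: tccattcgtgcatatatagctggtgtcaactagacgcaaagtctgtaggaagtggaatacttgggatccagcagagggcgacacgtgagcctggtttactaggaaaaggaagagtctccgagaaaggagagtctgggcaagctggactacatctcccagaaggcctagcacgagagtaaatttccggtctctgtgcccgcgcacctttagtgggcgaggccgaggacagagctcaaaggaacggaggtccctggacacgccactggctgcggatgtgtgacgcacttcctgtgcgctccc
Ndufb3: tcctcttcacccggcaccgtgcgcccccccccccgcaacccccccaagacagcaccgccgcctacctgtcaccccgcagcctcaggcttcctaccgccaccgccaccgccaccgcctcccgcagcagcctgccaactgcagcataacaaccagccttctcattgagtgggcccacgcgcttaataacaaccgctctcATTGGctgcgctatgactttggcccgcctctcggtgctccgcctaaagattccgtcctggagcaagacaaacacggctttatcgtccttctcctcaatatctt
Ndufa7: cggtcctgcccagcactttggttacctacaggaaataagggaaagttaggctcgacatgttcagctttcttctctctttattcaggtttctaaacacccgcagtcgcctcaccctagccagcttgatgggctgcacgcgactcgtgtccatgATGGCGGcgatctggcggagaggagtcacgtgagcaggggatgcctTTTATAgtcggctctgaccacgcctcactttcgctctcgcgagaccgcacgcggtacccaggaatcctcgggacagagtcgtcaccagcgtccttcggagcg
Ndufa1: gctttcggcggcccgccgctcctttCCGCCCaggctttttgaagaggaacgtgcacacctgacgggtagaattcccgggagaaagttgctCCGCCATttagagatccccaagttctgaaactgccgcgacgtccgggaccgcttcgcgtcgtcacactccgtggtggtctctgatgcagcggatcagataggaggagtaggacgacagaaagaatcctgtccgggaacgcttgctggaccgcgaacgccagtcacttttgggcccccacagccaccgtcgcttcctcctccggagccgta
Ndufa5: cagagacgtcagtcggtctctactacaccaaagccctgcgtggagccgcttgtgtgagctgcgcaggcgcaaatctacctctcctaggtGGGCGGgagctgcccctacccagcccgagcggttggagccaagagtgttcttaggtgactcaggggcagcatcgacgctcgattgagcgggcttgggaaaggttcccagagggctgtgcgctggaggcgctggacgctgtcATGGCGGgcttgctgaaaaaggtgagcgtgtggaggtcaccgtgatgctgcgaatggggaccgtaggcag
Ndufs6: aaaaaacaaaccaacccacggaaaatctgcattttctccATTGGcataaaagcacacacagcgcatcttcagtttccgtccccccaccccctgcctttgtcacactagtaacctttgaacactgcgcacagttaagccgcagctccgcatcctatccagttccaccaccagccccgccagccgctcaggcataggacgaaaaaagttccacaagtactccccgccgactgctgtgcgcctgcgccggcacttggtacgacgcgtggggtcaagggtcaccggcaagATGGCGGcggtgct

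Exact matches were searched on both strands. The YY1 letters ATGGCGG stood in 8 of 32 member promoters, 25% against 4.19% of all 27025 promoters of the table. In 5 of the 8 they lay downstream of the start site on the gene's own strand, as in Ndufs6 at position 37 counted from the start site. In Ndufa5 they began 20 bases before the RefSeq start site, 24527526 on chr6. The gene in GENCODE begins further upstream, at 24528013, so this match need not lie outside the transcript. The letters hold ATG, the start codon, and which matches stand at the start of a coding sequence was not examined. The NRF1 letters GCGCATGCG stood in 2 promoters, Ndufa8 and Ndufa11 (6.25% against 1.81%), and the ERR letters AAGGTCA in 3, Ndufb2, Ndufb4 and Ndufs5 (9.38% against 4.66%). The ETS letters CCGGAAG stood in 12.5% against 9.12%, the SP letters GGGCGG in 43.8% against 35.9%, the NF-Y letters CCAAT in 31.2% against 37.9% and the TATA letters TATAAA in 12.5% against 14.2%. Of the 62 matches, 1 pair of different motifs overlapped. The member promoters had a median GC content of 59% against 52.7%, and a median CpG ratio (observed over expected) of 0.763 against 0.389. These are matches of letters in a window, not sites of binding, and the shares were not tested.

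Measured per kilobase of exon, so that genes can be compared, the members spanned a wide range of RNA. Over the 24 libraries the 5 highest were Ndufa4 with 383 CPM per kb, Ndufa8 with 289, Ndufb9 with 283, Ndufv2 (a core subunit that carries an iron-sulfur cluster) with 279 and Ndufc2 with 266. The 5 lowest were Ndufb7 with 29.0 CPM per kb, Ndufv3 with 25.6, Ndufb2 with 8.39, Ndufb4 with 7.23 and Ndufa4l2 with 0.0182. Neighbours in this order lay within each other's spread: in het stem libraries Ndufa8 was at 304 ± 83.9, Ndufb9 at 356 ± 84.3 and Ndufv2 at 336 ± 82.7 CPM per kb (SD, n = 4). Ndufa4l2 had 14 counts in all 24 libraries together, none of them in stem libraries, and was not tested. The other 36 members passed the filter on low counts in every comparison. The length is that of all exons of the gene, so a long untranslated exon lowers the value, as for Ndufb2 with 5628 exon bases.

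**Figure D1:**
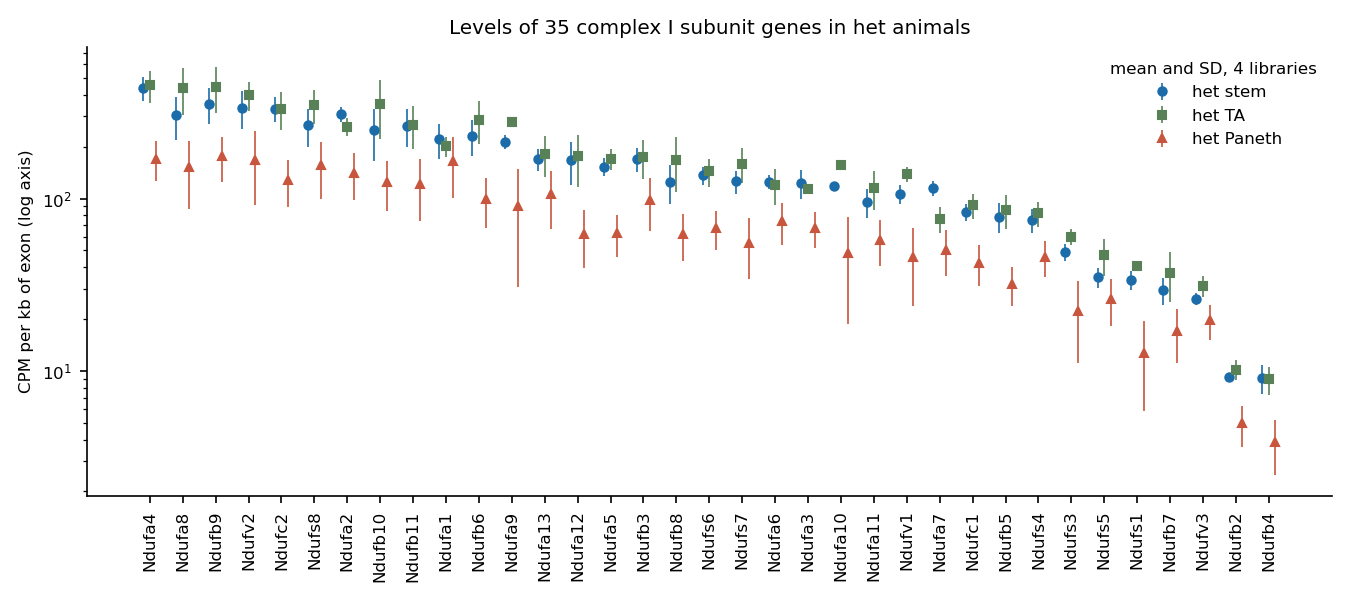
Levels of 35 members in het animals, ordered by their mean over all libraries; the log axis gives CPM per kb of exon, and points and bars are the mean and SD of 4 libraries of each fraction. Ndufa4 stands highest and Ndufb4 lowest, and the Paneth mean lies under the stem and TA means for each of the 35 genes on this scale. This scale divides by library totals without TMM. With TMM, Ndufa1 was at 90.4 CPM in het Paneth, 78.9 in het stem and 73.4 in het TA libraries. Ndufs5 and Ndufv3 then lay above their stem means but under their TA means.

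Some of these levels rest on reads that a copy elsewhere in the genome shares. Processed copies took 58.4% of the joint counts of Ndufs5 and its copy BC002163, 49.2% of those of Ndufs3 and Gm12251, 44.1% of those of Ndufb4 and Ndufb4c, and 43.3% of those of Ndufa12 and Gm15920. The levels of these 4 genes are therefore uncertain. Because counting ignored strand, members whose exons overlap another gene are uncertain too, above all Ndufb6 (39% of its exon bases, with Smim27) and Ndufa13 (30%, with Tssk6). Adding the copies' counts to the members left 0 members past the threshold in each of the 3 genotype comparisons, as without them. That unchanged 0 cannot show whether the copies matter, and the comparisons of fractions were not repeated with the copies added.

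Libraries of the same group differed in the members more than the fractions' names would show, and 3 of the animals stood apart. In the stem fraction BN44 was the lowest of the 4 het libraries for 26 of 36 members and BN45 the lowest of the 4 hom libraries for 29. In the TA fraction BN44 was lowest for 29 members and BN45 for 30. The median member in BN45 was at 0.613 times the mean of the other 3 hom stem libraries. Not all members took part: Ndufa1 and Ndufa3 were among those highest in BN44 among het stem libraries. In the Paneth fraction BO58 was the lowest het library for 22 members and the highest for 7, among them Ndufa9, Ndufa10, Ndufs1 and Ndufv1, with a median ratio of 0.469 to the other 3. That library also had the lowest sum of Paneth markers, 71408 CPM against 259283 to 487794 CPM in the other het Paneth libraries, and the smallest share of counts in its top 10 genes, 18.8%, and the part of this in the members' values was not tested. BN44 and BN45 have neighbouring identifiers, and the labels say nothing of a batch.

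**Figure D2:**
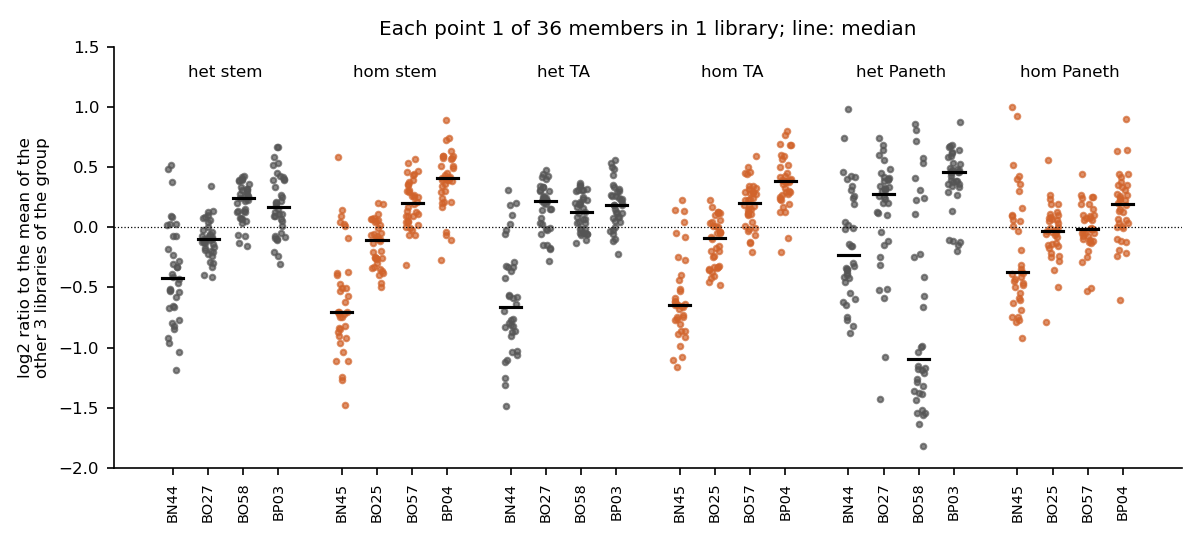
Each point is 1 of 36 members in 1 library, as the log2 ratio of its TMM-scaled CPM to the mean of the other 3 libraries of the group, with a line at the median (grey het, orange hom). BN44, BN45 and, among Paneth libraries, BO58 have the lowest medians of their groups.

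Members differed in how steady they were. In het stem libraries Ndufv3 (an accessory subunit beside the NADH site) varied least, from 68.0 to 74.3 CPM, and Ndufb10 (a distal membrane arm subunit) most, from 134 to 362 CPM. In het TA libraries Ndufa3 ran from 98.9 to 107 CPM and Ndufb10 from 160 to 483. The coefficient of variation of Ndufb10 was 38.9% there, and that of Ndufa3 was 3.68%.

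The comparison of hom with het shows how these genes differed by genotype in each fraction, where deletion of Setd1a itself was not measured. In the stem fraction no member passed the threshold of an adjusted p of 0.05 (edgeR quasi-likelihood test with Benjamini-Hochberg adjustment), where 0% of all 16056 genes were called higher and 0.0125% lower. The point estimates nevertheless lay to one side: 32 of 36 members were below zero, with a median log2 difference (hom over het) of -0.20 against 0.0045 for all genes. Without the stem library of BN45 the median was -0.083, without that of BN44 -0.30, and without both -0.19. At an unadjusted p under 0.05 there were 0 members higher and 10 lower, against 2.76% and 3.97% of all genes. With TMM over the 8 stem libraries of that fit, the 4 hom libraries lay wholly under the 4 het libraries for 7 members (Ndufa2, Ndufa7, Ndufa10, Ndufb3, Ndufc1, Ndufv1 and Ndufv3), against 3.09% of all genes, and wholly above for 0, against 1.86%. On the scale of all 24 libraries Ndufa2 overlapped narrowly, with 142 CPM in the lowest het and 143 CPM in the highest hom stem library. Of the others, Ndufa7, Ndufv1 and Ndufv3 belong to the NADH-oxidising arm.

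Ndufv1 (ENSMUSG00000037916, chr19:4007384-4012806 on GRCm38) encodes the core subunit that binds NADH and flavin, where electrons enter the complex. In the stem fraction it was at 252, 224, 270 and 216 CPM in the het libraries BN44, BO27, BO58 and BP03, and at 158, 127, 172 and 146 CPM in the hom libraries BN45, BO25, BO57 and BP04. Every hom library was under every het library. The log2 difference was -0.68 with a standard error of 0.14 and an edgeR adjusted p of 0.194.

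Ndufb3 (ENSMUSG00000026032, chr1:58586384-58595964), a small subunit of the distal membrane arm, showed the lowest log2 difference of the members. It was at 88.5, 107, 135 and 111 CPM in the het and at 34.3, 51.3, 57.6 and 72.2 CPM in the hom stem libraries, in the same order of animals. The groups did not overlap, and the lowest value in each group was that of BN44 or BN45. The log2 difference was -1.04 with a standard error of 0.229, and the edgeR adjusted p was 0.22.

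Ndufa7 (ENSMUSG00000041881, chr17:33824572-33838317), an accessory subunit of the NADH-oxidising arm, was at 164, 190, 193 and 173 CPM in het and at 64.3, 92.0, 117 and 136 CPM in hom stem libraries. Ndufc1, a membrane arm subunit, was at 90.9, 95.8, 123 and 118 CPM in het and at 41.5, 48.6, 70.9 and 88.9 CPM in hom stem libraries. For both genes the highest hom library, BP04, was still under the lowest het library. Their log2 differences were -0.82 and -0.78, with edgeR adjusted p of 0.338 and 0.478. Ndufv3 (-0.46), Ndufa10 (-0.31), Ndufb9 (-0.75) and Ndufa3 (-0.39) came next, with edgeR adjusted p between 0.591 and 0.722. Ndufa1 lay between 63.7 and 100 CPM in het and between 65.4 and 82.9 CPM in hom stem libraries, and the groups overlapped.

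**Figure D3:**
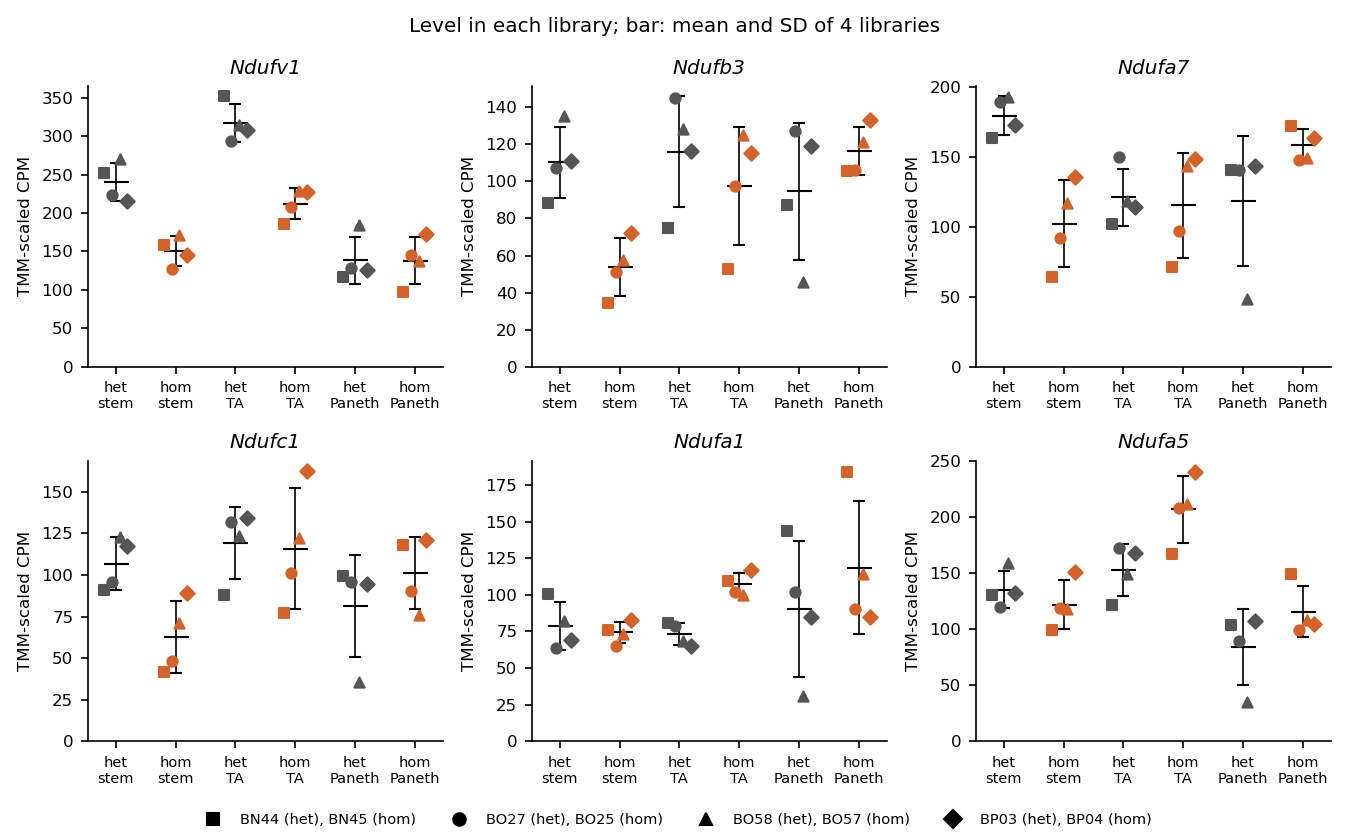
TMM-scaled CPM of 6 members in each of the 24 libraries by group (grey het, orange hom, 1 symbol for each pair of neighbouring animal identifiers), with the mean and SD of 4 libraries. The hom stem libraries of Ndufv1, Ndufb3, Ndufa7 and Ndufc1 all lie under the het stem libraries, and the hom TA libraries of Ndufa1 all lie above the het TA libraries.

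Other ways of testing called some of these genes. DESeq2 called 3 members lower in the stem fraction, Ndufv1, Ndufb3 and Ndufa7 (adjusted p of 0.00189, 0.00262 and 0.024), where it called 0.934% of all genes lower. An edgeR fit with animals of neighbouring identifier as blocks and genes of at least 5 CPM, added after the data were seen, called 5 lower, where it called 1.03% of all genes lower: these 3, Ndufc1 and Ndufb9 (adjusted p between 0.0101 and 0.0248). The labels do not say that such animals form pairs.

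Across the parts of the complex, the stem fraction estimates were lowest in the NADH-oxidising arm, with 9 of 10 members below zero and a median log2 difference of -0.33, and 5 of its members at an unadjusted p under 0.05. In the ubiquinone-reducing arm 5 of 6 were below zero (median -0.18, 0 at that p), in the proximal membrane arm 8 of 9 (median -0.19, 3 lower) and in the distal membrane arm 9 of 10 (median -0.13, 2 lower). Core subunits did not stand out: of the 7, Ndufv1 alone reached that p, and Ndufs1 was above zero at 0.22. Differences between the arms were not tested.

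The other lists of the pathway differed in where their estimates lay in the stem fraction. Of 38 nuclear subunits of complexes II to V, 33 were below zero (median -0.19), with 0 past the threshold, and 1 higher and 5 lower at an unadjusted p under 0.05. Sdhc, a membrane anchor of complex II, was at 124 ± 9.3 CPM in hom and 227 ± 21.6 CPM in het (SD, n = 4), a log2 difference of -0.88 with an edgeR adjusted p of 0.096. Atp5e and Atp5g2, ATP synthase subunits, had log2 differences of -0.66 and -0.92 (edgeR adjusted p of 0.213 and 0.563). Of 18 complex I assembly factors 10 were below zero (median -0.12), 4 of them at an unadjusted p under 0.05. Foxred1, which helps to assemble complex I, was at 10.3 ± 2.16 CPM in hom and 29.3 ± 4.32 CPM in het (SD, n = 4), a log2 difference of -1.52 with an edgeR adjusted p of 0.0919. Lyrm2 (-1.01) and Timmdc1 (-1.19) followed, with edgeR adjusted p of 0.198 and 0.386. The 7 mitochondrially encoded subunits had a median of 0.018, with 3 of 7 below zero. The lowest p among them was that of mt-Nd6 (log2 difference -0.50), then mt-Nd5 (-0.29) and mt-Nd4 (0.29). Among 12 regulators of mitochondrial genes, Tfb2m was at 0.40, Esrra at -0.76 and Polrmt at -0.52, and 0 passed.

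Markers of enterocytes, which are rich in mitochondria, lay on the same side as the members in the stem fraction, with 0 past the threshold. All 8 had a log2 difference below zero (median -2.67, 5 of them at an unadjusted p under 0.05), and their sum lay between 1044 and 1921 CPM in het and between 953 and 1168 CPM in hom stem libraries. In BN44 that sum was 1044 CPM and in BN45 1162 CPM. All 5 enteroendocrine markers tested were below zero too (median -1.66), with a sum of at most 46.6 CPM in het stem libraries. Crypt stem markers were above zero for 8 of 10 (median 0.125). Of the other lists, 4 of 8 cycling, 4 of 9 Paneth, 4 of 7 goblet, 1 of 3 tuft and 2 of 3 immune markers were above zero. Fewer cells of a type and less RNA per cell cannot be told apart in such libraries, and the part of these cells in the members' values was not tested. Short genes lay below zero as well. Protein-coding genes of under 1000 exon bases had a median of -0.17 in the stem fraction, and the 9 members of that length -0.19. In the next class of length all such genes had a median of -0.035 and the 14 members -0.24. Its part was not tested.

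In the TA fraction again 0 of 36 members passed, against 0% of 15925 genes in either direction. The estimates were mixed, with 21 above and 15 below zero and a median of 0.10 against 0.00033 for all genes. Without the TA library of BN44 the median was -0.043, and without that of BP04 -0.0058. Without that of BN45 it was 0.22. Cell type markers differed beside them: of 10 crypt stem markers 9 were above zero (median 0.40, 4 at an unadjusted p under 0.05), of 9 Paneth markers 7 (median 1.12), and of 8 cycling markers 0 (median -0.15). None passed the threshold, and their part in the members' values was not tested. At an unadjusted p under 0.05 there were 2 members higher and 2 lower, against 2.91% and 3% of all genes. The groups did not overlap for 1 member in each direction, Ndufa1 higher and Ndufv1 lower, against 2.08% and 2.07% of all genes.

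Ndufv1 was again lower in hom TA libraries, at 353, 294, 315 and 308 CPM in het and 186, 208, 229 and 227 CPM in hom. Its log2 difference was -0.57 with a standard error of 0.118 and an edgeR adjusted p of 0.449. Ndufa1 (ENSMUSG00000016427, chrX:37187588-37191163), a small subunit needed early in building the membrane arm, pointed the other way. It was at 80.7, 79.1, 68.4 and 65.4 CPM in het and at 109, 102, 100 and 117 CPM in hom TA libraries, a log2 difference of 0.55 with a standard error of 0.122 and an edgeR adjusted p of 0.47. Both genes separated the groups without overlap, 1 of 36 members in each direction. That is near the share of all genes, 2.08% higher and 2.07% lower. DESeq2 called both in the TA fraction (adjusted p of 0.00418 for Ndufv1 and 0.0151 for Ndufa1), where it called 0.132% of all genes higher and 0.308% lower. Among those of next smallest p were Ndufa5 (0.45), Ndufa4 (0.44), Ndufa10 (-0.29), Ndufa3 (0.27) and Ndufa2 (0.27), with edgeR adjusted p between 0.735 and 0.923.

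The core subunits stood to one side in the TA fraction: all 7 were below zero (median -0.16), and 2 of them, Ndufv1 included, had an unadjusted p under 0.05. Of the 18 assembly factors 16 were below zero (median -0.12), with Foxred1 at -0.90, Timmdc1 at -1.38 and Tmem186 at -0.83 (edgeR adjusted p of 0.489, 0.563 and 0.622). Of the 38 subunits of complexes II to V, 22 were above zero (median 0.19), with 4 higher and 2 lower at an unadjusted p under 0.05. Sdhc was at -0.66, Cox6c at 0.42 and Cox7c at 0.37, with edgeR adjusted p of 0.489, 0.622 and 0.673. The mitochondrially encoded subunits had a median of 0.015, led by mt-Nd5 at -0.44, mt-Nd2 at 0.29 and mt-Nd1 at 0.20. None of the regulators passed, and Tfb2m (0.22), Gabpb1 (-0.17) and Nrf1 (-0.14) had their smallest p. Protein-coding genes of under 1000 exon bases had a median of 0.25 in this comparison and the 9 members of that length 0.16, and the part of length was not tested.

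In the Paneth fraction 0 members passed (0% of 16108 genes in either direction), and 0 had an unadjusted p under 0.05, against 0.919% of all genes higher and 1.37% lower. Of the 36 estimates 31 were above zero, with a median of 0.28 against -0.0031 for all genes. Without BO58 the median was 0.13. Of the cell type markers, 6 of 8 enterocyte (median 0.43), 8 of 9 Paneth (0.39), 8 of 10 crypt stem (0.14) and 2 of 2 immune markers were above zero. Goblet (3 of 7), enteroendocrine (3 of 10), tuft (3 of 8) and cycling markers (3 of 8) were mostly below. None passed the threshold, and their part was not tested. Ndufa13, which was identified also as a cell death regulator, had the smallest p (log2 difference 0.58), then Ndufs6 (0.47), Ndufb7 (0.45), Ndufv3 (0.48), Ndufa12 (0.54), Ndufa5 (0.46), Ndufs7 (0.28) and Ndufa7 (0.41), with edgeR adjusted p of 1 for each. Ndufa7 was the 1 member whose groups did not overlap, against 0.844% of all genes higher. It was at 141, 141, 48.8 and 144 CPM in het and at 172, 148, 150 and 164 CPM in hom Paneth libraries, and the lowest value was that of BO58. Ndufv1 was at -0.015 and Ndufa1 at 0.39. Complexes II to V had a median of 0.20 with 28 of 38 above zero, the assembly factors 0.22 with Timmdc1 (1.06), Ndufaf2 (0.39) and Ndufaf8 (0.55) at the smallest p, and the mitochondrially encoded subunits -0.19 with mt-Nd6 at -0.36. Protein-coding genes of under 1000 exon bases had a median of 0.23, and the 9 members of that length 0.30.

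**Figure D4:**
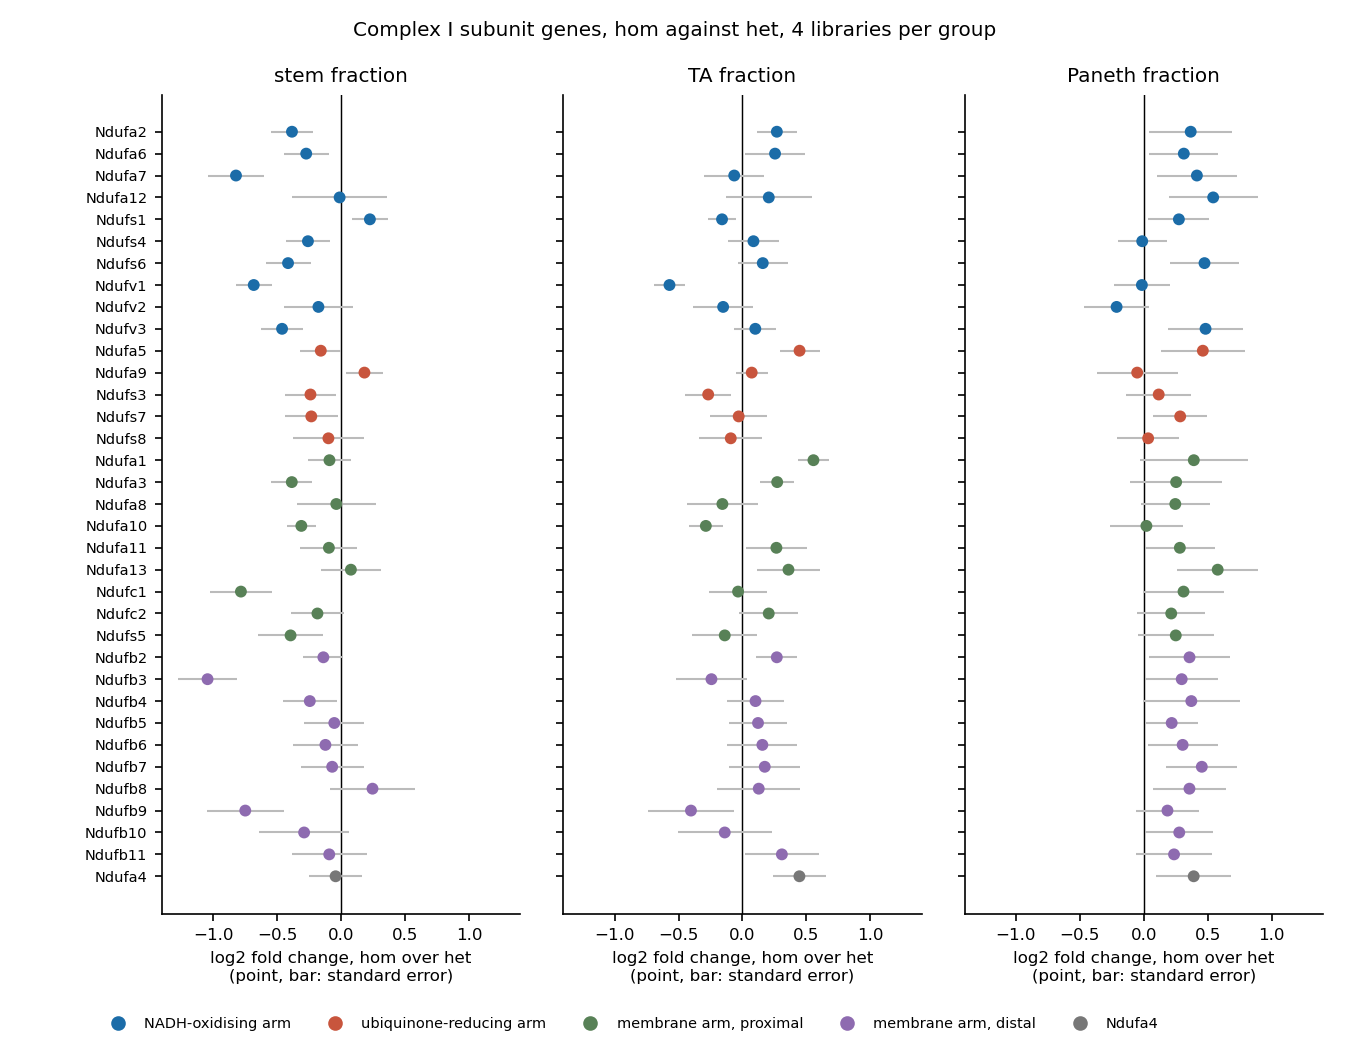
Log2 fold change of hom over het with its standard error for 35 members in each fraction, by part of the complex, 4 libraries per group. Most members lie left of zero in the stem fraction, on both sides in the TA fraction and right of zero in the Paneth fraction, and none passed an adjusted p of 0.05.

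Whether the genotype difference itself differed between fractions was tested as an interaction in 1 fit of all 24 libraries, over 19396 genes. No member passed for any of the 3 pairs of fractions. For stem minus TA, 0 members had an unadjusted p under 0.05 in either direction, against 1.49% and 2.46% of all genes. For stem minus Paneth, 0 were higher and 7 lower, against 2.98% and 3.3%: Ndufb3 (-1.34), Ndufa7 (-1.23), Ndufv3 (-0.94), Ndufv1 (-0.67), Ndufs6, Ndufc1 and Ndufa2, with edgeR adjusted p of 0.541 to 0.624 for the named values. For TA minus Paneth, 0 were higher and Ndufv1 (-0.57, edgeR adjusted p of 0.936) was lower, against 2.85% and 2.13%.

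The fractions themselves can be compared within an animal, since each animal gave 1 library of each. In hom animals 34 of 36 members were lower in the stem than in the TA library in all 4 animals, against 19.7% of 13391 genes, and 0 were higher in all 4, against 18.6%. In het animals 18 of 36 were lower in all 4, against 20.5%, and 1 higher (Ndufa7), against 19.7%. By animal, 34, 35, 35 and 36 members were lower in the stem library in BN45, BO25, BO57 and BP04, with median log2 ratios of -0.58, -0.49, -0.44 and -0.46. In BN44, BO27, BO58 and BP03 it was 18, 34, 25 and 31 members, with medians of -0.019, -0.42, -0.17 and -0.17. The median over all genes was between -0.018 and 0.012 in the 8 animals. BN44 is thus the animal in which the members did not lean to either side.

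With the animal as a block, 27 members were called lower in hom stem than hom TA libraries and 0 higher, where 5.07% of all genes were called lower and 3.87% higher (edgeR, adjusted p of 0.05). In het animals 7 were called lower and 1 higher, where 6.33% and 5.09% of all genes were. Without the block the counts were 3 lower and 0 higher in hom animals (2.58% and 2.03% of all genes) and 1 lower and 1 higher in het animals (3.57% and 2.69%). With the block but without BN44 and BN45, an alternative added after the data were seen, 11 were called lower and 0 higher in hom animals (1.73% and 1.21% of all genes), and 2 lower and 0 higher in het animals (2.32% and 1.68%). A larger count in hom than in het does not show that the contrasts differ, and the interaction for stem minus TA called 0 members. That fit of 24 libraries takes no account of the animal. In an edgeR fit of the stem and TA libraries with the animal as a block, added after the data were seen, again 0 members and 0 of 17777 genes passed. There 18 members were lower and 1 higher at an unadjusted p under 0.05, against 5.27% and 3.93% of all genes, with a median of -0.32. Ndufa7 (-0.75), Ndufc1 (-0.76), Ndufa2 (-0.65), Ndufa3 (-0.63) and Ndufb3 (-0.79) had the smallest p, with an edgeR adjusted p of 0.243 each. The hom stem libraries enter both this comparison and that of hom with het. For stem minus TA in the fit of 24 libraries, protein-coding genes of under 1000 exon bases had a median of -0.42. The 9 members of that length had -0.38. In the next class of length all such genes had a median of -0.038 and the 14 members -0.34. Stem over TA, genes of under 1000 bases were at -0.245 in hom and 0.101 in het animals, and these 9 members at -0.534 and -0.0749. The part of length was not tested.

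Ndufc1 had the lowest log2 difference within hom animals. Stem over TA, it was -0.89, -1.06, -0.79 and -0.87 in BN45, BO25, BO57 and BP04, and 0.050, -0.46, -0.0061 and -0.19 in BN44, BO27, BO58 and BP03. With the block it was -0.91 in hom (edgeR adjusted p of 0.00483) and -0.15 in het animals (0.44). Ndufb3 was at -0.84 in hom (edgeR adjusted p of 0.0116) and -0.050 in het (0.85), Ndufv3 at -0.83 (0.00586) and -0.27 (0.176), and Ndufa5 at -0.78 (0.00503) and -0.17 (0.467). Ndufa1 was at -0.54 in hom (edgeR adjusted p of 0.0155) and 0.088 in het animals (0.729). For Ndufa1 it was the TA libraries that set this apart, with 107 ± 7.70 CPM in hom and 73.4 ± 7.61 in het (SD, n = 4), beside 74.5 ± 7.24 and 78.9 ± 16.3 in the stem libraries.

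Some members were lower in stem libraries of both genotypes. Ndufa10, a membrane arm subunit, was at 339, 331, 313 and 357 CPM in the stem and at 464, 423, 465 and 476 CPM in the TA libraries of BN44, BO27, BO58 and BP03, and no stem library reached a TA library. Its log2 difference in het animals was -0.45 (edgeR adjusted p of 0.0326), and -0.46 in hom animals (0.102). Ndufv1 was at -0.40 in het and -0.51 in hom animals (edgeR adjusted p of 0.0888 and 0.07), and with the block at -0.41 and -0.51 (0.0277 and 0.0349). Ndufa8, Ndufa10, Ndufb10 and Ndufs8 were also called lower in both genotypes with the block.

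Ndufa7 alone among the members was called higher in het stem than in het TA libraries, at 164, 190, 193 and 173 CPM against 102, 150, 119 and 115 CPM. Its log2 difference was 0.56 (edgeR adjusted p of 0.0481), and -0.19 in hom animals (0.812). Its start site lies 10 bases from that of Rps28, a ribosomal protein gene read in the other direction, whose log2 difference of hom over het in the stem fraction was -0.49 with an edgeR adjusted p of 0.891. Leaving out any 1 of the 4 animals ended both calls of the fit without the block in het animals, Ndufa7 and Ndufa10. Leaving out BO25, BO57 or BP04 left 0 of the 3 calls in hom animals (Ndufa1, Ndufa5 and Ndufv3), and leaving out BN45 gave 5. Fits with an animal left out hold fewer libraries, and their share of all genes called is not given.

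**Figure D5:**
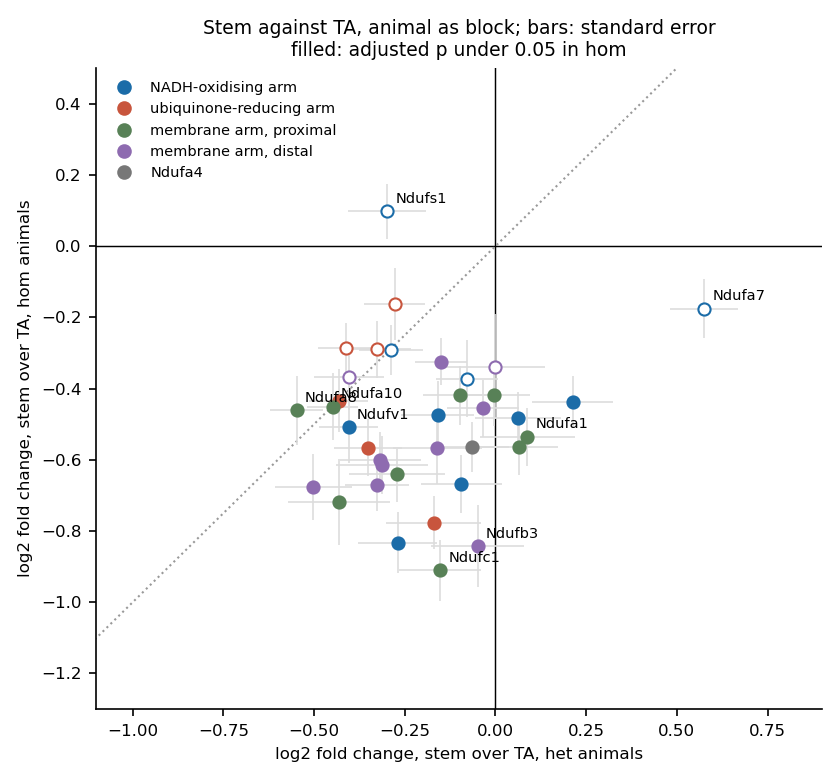
Log2 fold change of stem over TA with the animal as block, het animals on the x axis and hom animals on the y axis, with standard errors, for 36 members (filled where the adjusted p in hom was under 0.05, dotted line where both are equal). Of the 36 points 35 lie below zero on the y axis, and Ndufa7 lies farthest to the right.

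Other oxidative phosphorylation genes were mostly below zero in this contrast too. Of 38 nuclear subunits of complexes II to V, 37 were below zero in hom animals (median -0.60). Without the block 11 were called lower, against 2.58% of all genes. In het animals 4 were called lower, against 3.57% of all genes, and 33 were below zero (median -0.23). The mitochondrially encoded complex I subunits did not: 4 of 7 were below zero in hom (median -0.081) and 0 of 7 in het animals (median 0.16), and 0 passed. Assembly factors had medians of -0.11 in hom and -0.20 in het animals, with 0 passing. Enterocyte markers lay on the same side here too. All 8 were below zero in hom animals (median -3.24, 6 called lower, against 2.58% of all genes). In het animals 5 of 8 were (median -0.68, 1 called lower, against 3.57%). Such counts do not show that the genotypes differ. Goblet markers fell in both genotypes, 7 of 7 each. The part of these cells in the members' values was not tested.

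Against TA libraries, the log2 difference of Paneth libraries was below zero for 35 of 36 members in het and 30 of 36 in hom animals. In het animals 11 members were lower and 0 higher, where 11.8% of all genes were called lower and 17.4% higher, and the median log2 difference (Paneth over TA) was -0.76 against 0.077 for all genes. In hom animals 13 were lower and 0 higher (12.2% and 16.3% of all genes), with a median of -0.58. These fits take no account of the animal. With the animal as a block, 16 were lower in het and 19 in hom animals, and 0 higher in either. There 12.8% and 13.3% of all genes were called lower, and 16.4% and 16.6% higher. Core subunits made up 6 of the 11 and 6 of the 13, and all 7 were below zero in both genotypes (medians -1.07 and -0.74). Leaving out 1 animal left between 5 and 10 calls in het animals (5 without BO27, 7 without BO58 or BP03). In hom animals it left between 4 and 14 (8 without BO25 or BP04, 4 without BO57). Such fits hold fewer libraries, and their share of all genes called is not given.

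Ndufs1, the largest core subunit, which carries iron-sulfur clusters, was at 277, 291, 271 and 305 CPM in the TA and at 110, 86.2, 168 and 110 CPM in the Paneth libraries of BN44, BO27, BO58 and BP03. The groups did not overlap. Its log2 difference was -1.25 in het (edgeR adjusted p of 0.00276) and -0.80 in hom animals (0.00483). Ndufa10 was at -1.27 and -0.95 (edgeR adjusted p of 0.00851 and 0.00376), Ndufa9, an accessory subunit at the joint of the arms, at -1.20 and -1.31 (0.0207 and 0.000426), Ndufv1 at -1.17 and -0.60 (0.00196 and 0.0211) and Ndufa8 at -1.08 and -0.67 (0.0261 and 0.0636). Ndufa1 was at 0.32 and 0.19 and passed in neither genotype.

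Paneth libraries were also compared with stem libraries. In het animals 0 members were higher and 6 lower, among them Ndufs1 (-0.95), Ndufa10 (-0.82), Ndufb5 (-0.78), Ndufv1 (-0.76) and Ndufs7 (-0.69), with edgeR adjusted p between 0.0108 and 0.0479 for those named, where 17.3% of all genes were called higher and 11% lower. The median was -0.52. In hom animals 4 were higher (Ndufa7, Ndufb3, Ndufs5 and Ndufv3) and 4 lower (Ndufa9, Ndufa10 and Ndufs1 among them), where 17.4% and 13.2% of all genes were, with a median of -0.016. There Ndufs1 was at -0.90, Ndufa10 at -0.49, Ndufb5 at -0.50, Ndufv1 at -0.099 and Ndufs7 at -0.17. The interaction for stem minus Paneth passed 0 members, so the genotypes are not shown to differ here. The 4 lower in hom animals share 3 with the 6 of het animals. These counts take no account of the animal. The call of Ndufs5 was not checked with the counts of its processed copy added. With the animal as a block, 8 were lower and 0 higher in het animals (10.4% and 15.4% of all genes). In hom animals 4 were lower and 3 higher with it (13.3% and 16.9%). Ndufb3 and Ndufv3 were both at 1.15 in hom animals, beside -0.19 and 0.20 in het animals. Leaving out 1 animal left between 1 and 4 calls in het animals (2 without BN44 or BO27, 1 without BP03). In hom animals it left between 4 and 7 (5 without BO25, 4 without BO57). The share of all genes called in such smaller fits is not given. The Paneth fraction also held RNA of other secretory cells: all 8 tuft markers were called higher there than in stem and in TA libraries in both genotypes, and the tuft sum was between 1999 and 2861 CPM in het Paneth libraries. A few genes dominated the fraction, with 18.8% to 57.2% of a library in its top 10 genes, and TMM factors there ran from 0.448 to 1.11. The part of these in the members' values was not tested.

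The start sites of 14 members faced that of another coding gene within 1000 bases, and 12 of these partners were tested. In the stem fraction 10 of the 12 were below zero, in the TA fraction 9 and in the Paneth fraction 5, and 0 passed the threshold in any. In the TA fraction partners below zero faced members on both sides, as Rnf113a1 (-0.13) with Ndufa1 (0.55) and Tatdn1 (-0.33) with Ndufb9 (-0.40). In the stem fraction Tatdn1, 18 bases from Ndufb9 (-0.75), was at -0.66, Mrpl36, beside Ndufs6 (-0.42), at -0.76, and Phf14, beside Ndufa4 (-0.044), at -0.69. Fam126b, 61 bases from Ndufb3, was at 0.61 there. The edgeR adjusted p of these 4 partners lay between 0.4 and 0.773. Where exons of the pair overlap, as for Ndufs6 and Mrpl36, unstranded reads of the overlap cannot be told apart.

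Across the 36 members, the relation of exon length to log2 difference varied with the comparison. Spearman's rho was 0.18 in the stem, -0.30 in the TA and -0.16 in the Paneth comparison of hom with het. For stem over TA it was 0.37 in hom and -0.26 in het animals. It was largest, at 0.45, for the genotype effect of stem minus TA. These genes share the same libraries and are not independent, and the part of length was not tested.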

How the data were processed

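Counts per gene were deposited by the authors, who made them with featureCounts 2.0.1 after bcl2fastq 2.20.0 on mm10, per the submitters' processing notes. Per the file headers, counting was unstranded, on fragments. The deposited gene length, in exon bases, served to give CPM per kb. cDNA was amplified by PCR, and no molecular identifiers are stated. Genes (none left out by name, 92 ERCC sequences excluded) were tested with edgeR 4.0.16 (quasi-likelihood, TMM, filterByExpr, Benjamini-Hochberg 0.05), 4 libraries per group within each comparison, and with DESeq2 1.42.0 and limma 3.58.1 as alternatives, in R 4.3.3. The code was tested on simulated data. Named members are Ndufv1 and Ndufa1, the 8 of smallest p per genotype comparison, up to 6 per direction past the threshold in het fraction comparisons, 4 per interaction and the 5 highest and lowest levels, with 3 genes of each pathway list. Members and lists were chosen with earlier results of these data known. Fractions share the animal, per the titles: deviations of stem and TA libraries of 1 animal correlated at 0.083 to 0.25. Nothing says the libraries came from separate litters or days, so p-values of hom against het measure the spread between these animals. Fraction comparisons took the libraries of 1 animal as separate unless the animal is named as a block. With that block, p-values measure the spread of the difference within animals. Copies were found with minimap2 2.31-r1302 on GENCODE M21, and tables were made with Python 3.11.15 and pandas 2.3.3. 1 member is counted but not reported by name.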

Additional observations from a re-analysis of the deposited data

Results flagged for a closer look

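Of 144 sets of 4 libraries examined (22 named members, their sum and the mitochondrially encoded share in each group), 13 held a library far from the other 3. For independent, normally distributed sets chance alone gives about 1 in 20. These sets share the same libraries and are not independent, so the 13 cannot be weighed against that rate. Of the 13, 6 concern the Paneth library of BO58. There Ndufa2 was at 42.1 CPM (others from 121 to 126), Ndufa4 at 137 (342 to 382), Ndufa7 at 48.8 (141 to 144), Ndufc1 at 35.7 (94.4 to 99.5) and Ndufv3 at 37.8 (89.1 to 99.1), all lowest, while Ndufv1 at 184 (117 to 128) was highest. BN44 was lowest for Ndufa13 among het stem libraries at 137 CPM (194 to 203), and among het TA libraries for Ndufb9 at 216 (446 to 480) and Ndufs7 at 153 (259 to 281). BN45 was lowest for Ndufs6 among hom stem libraries at 57.9 (83.1 to 88.1) and among hom TA libraries at 89.2 (133 to 140), and for Ndufs7 among hom Paneth libraries at 109 (145 to 149). BO58 was highest for Ndufa2 among het stem libraries at 173 CPM (142 to 145). The largest count of an ERCC spike-in sequence in a library was 6, in a hom Paneth library, and 6 libraries held any.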

How the results depend on the processing

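Medians of the members, hom against het, ran from -0.30 to -0.083 in the stem, from -0.043 to 0.22 in the TA and from 0.13 to 0.42 in the Paneth fraction over the alternatives run. Counts of members past the threshold changed as follows. Beside each stands the share of all genes called, both directions together, except where 1 animal was left out. DESeq2 gave 3 in the stem (1.16%) and 2 in the TA genotype comparison (0.44%), 4 and 10 for stem against TA in het (12.1%) and hom animals (9.85%), and 19 for Paneth against TA in het animals (36.4%). Without a filter there were 0 for stem against TA (2.71%) and 18 for Paneth against TA (14.5%), both in het animals, and genes of at least 5 CPM gave 5 for stem against TA in hom animals (8.46%). The replicate block of the animal gave 8 for stem against TA in het (11.4%) and 27 in hom animals (8.94%), and 11 in hom animals without BN44 and BN45 (2.94%). It moved no other count by over 1.5 times. The block of neighbouring identifiers with genes of at least 5 CPM gave 5 in the stem genotype comparison (1.24%). With 1 animal left out, counts ran, in het animals, from 0 to 0 for stem against TA, from 1 to 4 for Paneth against stem and from 5 to 10 for Paneth against TA, and in hom animals from 0 to 5, from 4 to 7 and from 4 to 14. Single values that changed sign were all small. Ndufv1 in the Paneth genotype comparison was at 0.0057 with genes of at least 5 CPM, 0.0082 with upper-quartile scaling, 0.0052 with block and 5 CPM, 0.022 without BN44 and BN45 together, and 0.083 and 0.14 without BN45 or BO58, from -0.13 to 0.14 with 1 library left out. Ndufv1 for Paneth against stem in hom animals was at 0.047 without BN45, from -0.22 to 0.047. Ndufa1 was at 0.042 in the stem genotype comparison without BN44 and at 0.034 without BN44 and BN45 together, from -0.18 to 0.042, at -0.14 for Paneth against TA in hom animals without BN45, from -0.14 to 0.38, and at -0.11 and -0.014 for the genotype effect of TA minus Paneth without BN44 or BP04, from -0.11 to 0.45. The causes were not tested. Labels state no pairing of neighbouring identifiers, whose libraries correlated at -0.00082 to 0.23. Depth kept 1 member, Ndufa4l2 with 14 counts, from being tested.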
